A study of Homo sapiens with 54 samples.

Results

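The comparison concerns TNF in cells that were also given EGF. Of the 54 arrays of the series, 12 belong to it: 6 of cells given TNF at 100 ng/ml together with EGF at 100 ng/ml, and 6 of cells given EGF at 100 ng/ml alone, chosen by their labelled doses. Neither group received insulin. Each group holds 2 arrays at each of 4, 8 and 16 h, and time was kept as a covariate. All cells were HT-29, an established line from a human colon adenocarcinoma, and every group, controls included, had first been primed for 24 h (interferon-gamma, 200 U/ml). A control without interferon-gamma was not analysed here, so each value describes primed cells of 1 line. For comparison, 24 further arrays were used: 6 each of primed cells without any added factor, with TNF at 100 ng/ml alone, with insulin at 500 ng/ml alone and with both TNF at 100 ng/ml and insulin at 500 ng/ml. The remaining primed arrays had TNF at 5 ng/ml, alone or with EGF at 1 ng/ml or insulin at 5 ng/ml. They were not compared here, but their spread entered the fit of all 54 arrays. The series describes its replicates as biological duplicates, and which cultures share a flask or day is not given in the sources used here.

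TNF is an inflammatory cytokine that binds the receptors encoded by TNFRSF1A and TNFRSF1B. Adaptors and kinases at the receptor release NF-kB from its inhibitors, and the same receptor can assemble a caspase-8 complex that starts apoptosis. EGF binds the receptor tyrosine kinase encoded by EGFR and drives the ERK pathway, growth and survival. In colon epithelium TNF is known for chemokine production, barrier damage and cell death, EGF for repair and proliferation, and interferon-gamma for antigen presentation and for making epithelial cells more sensitive to TNF.

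A value called signal is the linear brightness of a probe set, a group of array probes for 1 transcript. Differences are in log2 units, with TNF and EGF minus EGF alone. Unless a time is named they are the mean over the 3 times, ± is the standard error and n is 6 arrays per treatment. The spread behind the standard error was estimated from all 54 arrays. A gene rose or fell if its probe set had a limma p, adjusted by the Benjamini-Hochberg method over 13422 probe sets, under 0.05. A pair is the array with TNF and EGF and the array with EGF alone of the same time and replicate number. The 12 arrays were alike in overall brightness, with median signals of 119.7 to 149.0, and replicates correlated at 0.954 to 0.977 across probe sets. The ratio of ACTB signal at the 3′ end to that at the 5′ end, a sign of RNA quality, had a log2 of −0.11 to 0.15 with TNF and EGF and of −0.25 to 0.40 with EGF alone. Both 8 h arrays of replicate 2 had a high 10th percentile of signal, 18.6 with TNF and EGF and 15.5 with EGF alone. Among the arrays used for comparison, the ACTB log2 was high in 8 h replicate 2 with TNF alone (1.19) and with insulin alone (0.98). These arrays were never left out singly, only with the other 8 h arrays of replicate 2 or with all 8 h arrays.

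Most colon epithelial markers were measured in both groups. Of 12 colon epithelial markers, 9 reached the filter for measurable signal, 138.9, in at least 1 of the 12 arrays, and CDX1, CDX2 and CDH17 stayed below it in each. The summed signal of the 12 markers was 68114 to 92061 with TNF and EGF and 69110 to 92435 with EGF alone, so the ranges overlapped. Among 10 leukocyte markers 3 stayed below the filter in all 12 arrays, including PTPRC at 6.7 to 40.6, while ITGAM rose by 1.23 and CD14 fell by 1.11 (lost without the 8 h arrays, adjusted p = 0.0783, the highest of its alternatives, whose lowest was 0.000152). Lysozyme, LYZ, which intestinal epithelium also makes, accounted for most of their summed signal of 4965 to 9020. Among the fibroblast and endothelial markers 12 of 18 stayed below it.

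TNF changed 1578 of 8105 measured genes (19.5%) in EGF-treated cells, 534 upward (6.59%) and 1044 downward (12.9%). Counts of risen and fallen genes in the lists below are to be read against these shares. A gene counts as measured if any group mean reached the filter. A gene dim without TNF can thus enter through groups with TNF, while a dim gene that TNF did not raise drops out. Counts and medians of risen list members can be too high for this reason, and falls can be affected likewise. How far was not tested. At least 2-fold, 155 genes rose and 75 fell. The median difference over all genes was −0.069, with −0.04 after quantile normalization and −0.051 after median centring. How far the scaling of the arrays adds to the count of falls was not tested. In 293 genes (3.62%) the 6 arrays with TNF and the 6 without did not overlap at all, 173 of them higher with TNF (2.13%). The same direction in 6 of 6 pairs was seen for 385 of the risen and 667 of the fallen genes. By probe set 2256 passed (16.8%), and with the replicate number as a block within each time 3267, or 2182 genes with all 1578 among them.

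Within the TNF system itself, TNF RNA was higher where TNF protein had been added. Its signal was 172 to 261 (median 219) with TNF and EGF and 8.86 to 114 (median 40.3) with EGF alone, a rise of 2.10 ± 0.32 (adjusted p = 7.47e-06). LTB, which encodes the related ligand lymphotoxin-beta, rose by 2.52 ± 0.22, from 12.6 to 58 (median 35.2) to 81.6 to 625 (median 196). For neither ligand did the groups overlap. The receptor TNFRSF1B rose by 1.30 ± 0.26, but its highest signal was only 200.2. TNFRSF1A, the main receptor on epithelial cells, had signals of 1621 to 2920 (median 2390) against 1170 to 2313 (median 1904), and did not pass at 0.31 ± 0.16 (adjusted p = 0.194). Of 22 listed genes of the receptor complex 15 were measured: 3 rose (6.59% of all genes), 2 fell (12.9%) and 10 did not pass. The stress kinase MAP3K5 fell by 0.69. The adaptor TRAF5 fell by 0.71 (adjusted p = 0.0311), but over 23 alternatives its adjusted p lay between 0.0191 and 0.115 and passed in 12, and it was lost without any 1 of 7 arrays (EGF alone 4, 8 and 16 h replicate 1, EGF alone 16 h replicate 2, TNF with EGF 4, 8 and 16 h replicate 1).

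NF-kB subunits and feedback genes were higher at all 3 times. Of 20 listed genes 17 were measured; 15 rose and REL and TNIP2, at 0.34 and 0.22, did not pass. The median difference was 1.44, against −0.07 over all genes. In each of the 15 risen genes the groups did not overlap, and over all genes 2.13% were higher without overlap. NFKBIA, which encodes the inhibitor IkB-alpha that NF-kB induces to shut itself off, gave 8807 and 10200 at 4 h, 8020 and 9352 at 8 h and 11663 and 8898 at 16 h with TNF and EGF. With EGF alone it gave 2014 and 2312, 1619 and 1391 and 1616 and 1270. All 6 arrays with TNF lay far above all 6 without, and the rise was 2.49 ± 0.11 (adjusted p = 1.33e-18, 6 of 6 pairs). The deubiquitinase TNFAIP3 rose by 3.34 ± 0.13, from 186 to 309 (median 238) to 2103 to 3267 (median 2536). Its partner TNIP1 rose by 2.15 ± 0.08, the subunit NFKB2 by 2.10 ± 0.30 and TNFAIP2 by 2.26 ± 0.14. The subunits RELB and RELA rose by 1.94 and 0.87. Already at 4 h 12 of the 17 were higher (1.83% of all genes), 13 at 8 h (2.92%) and 14 at 16 h (5.54%), with medians of 1.21, 1.45 and 1.69.

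NFKBIA carries a textbook NF-kB site in its promoter, so the 250 bases before its start are shown. They are from RefSeq on GRCh38.p14, chr14:35404750-35404999, minus strand, and the capitals mark the match to the kappa B motif, at position −81 from the start site.
NFKBIA: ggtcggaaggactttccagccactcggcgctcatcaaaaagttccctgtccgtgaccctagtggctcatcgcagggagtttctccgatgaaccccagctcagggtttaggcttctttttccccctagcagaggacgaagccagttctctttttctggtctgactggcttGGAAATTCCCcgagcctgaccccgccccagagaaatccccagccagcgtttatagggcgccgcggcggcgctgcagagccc
The kappa B motif, searched on both strands over the same 250 bases, was found in 5.21% of 35116 promoters in the table and in 8.42% of the 6711 tested genes with a promoter there. It was found in 81 of 430 genes that rose (18.8%), in 36 of 119 that rose at least 2-fold (30.3%) and in 70 of 871 that fell (8.04%). Of the NF-kB list it was found in 9 of 14 genes and of the chemokine list in 12 of 18. SLC2A6 and FGFR3, which had the largest mean rise and fall at the settings above though not at all alternatives, held no match to kappa B, ISRE or AP-1 in their windows. These shares describe letters in a window and were not tested.

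**Figure D1:**
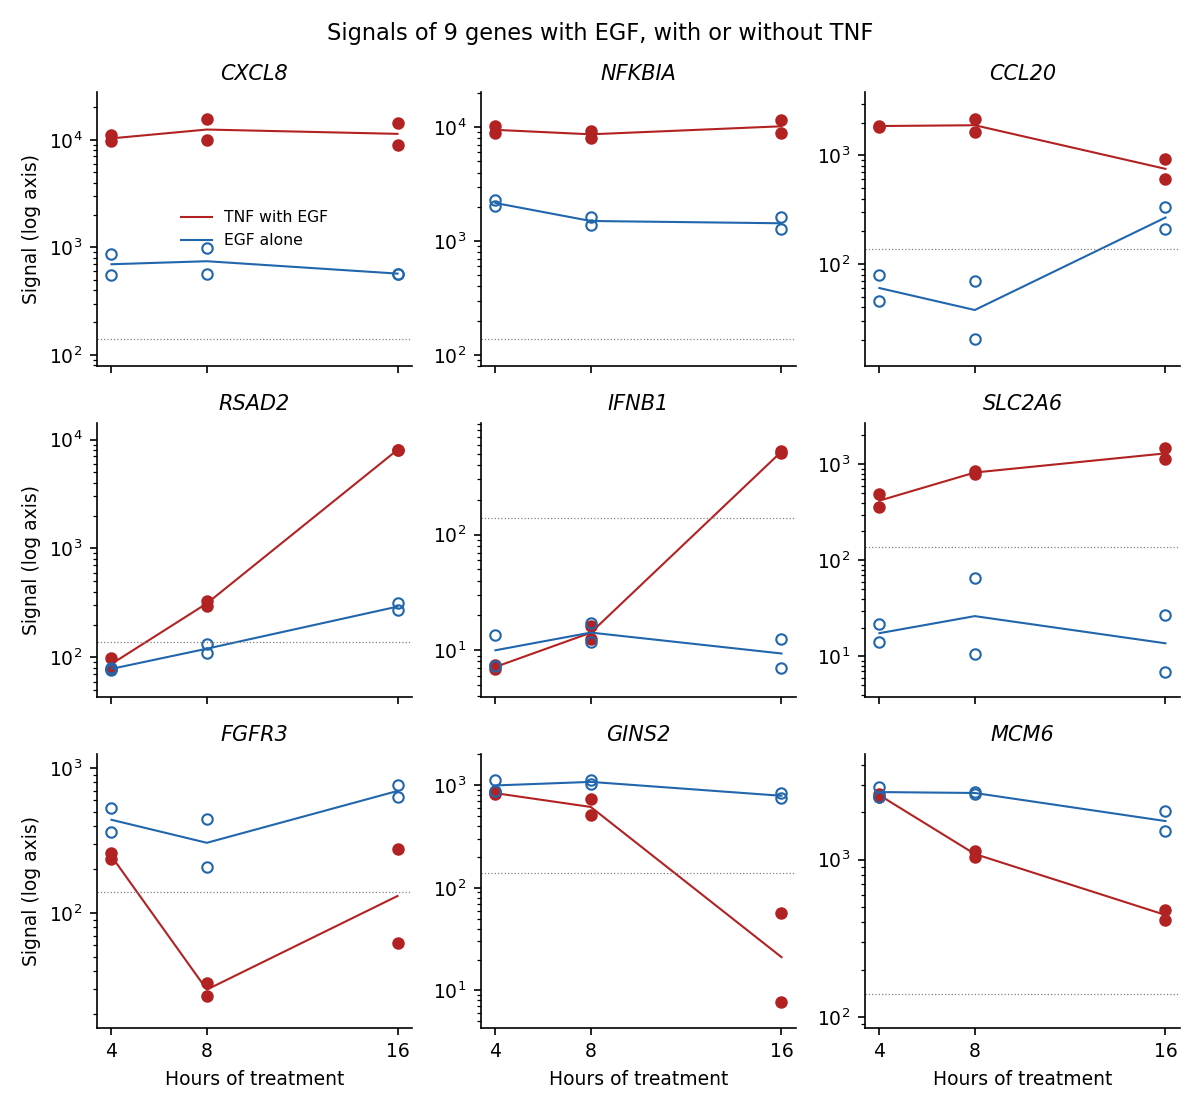
Signal on a log axis at 4, 8 and 16 h for 9 genes in cells given TNF with EGF (filled red points) or EGF alone (open blue points), 1 point per array, with lines through the geometric means of 2 arrays and a dotted line at the filter signal of 138.9. CXCL8, NFKBIA and SLC2A6 stood apart at each time and IFNB1 separated at 16 h. RSAD2 was apart at 8 h and more so at 16 h. MCM6 was lower with TNF at 8 and 16 h, and GINS2 differed most at 16 h.

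Chemokines and cytokines had the largest median difference of the lists, 2.00. Of 30 listed genes 26 had a probe set and 22 were measured; 19 rose, and IL6, TNFSF15 and IL1B did not pass. Members that stayed dim in every group were left out by the filter, which can raise this share and the median. CXCL8, the neutrophil attractant, had signals of 8957 to 15681 (median 10438) with TNF and EGF and 555 to 977 (median 569.6) with EGF alone and rose by 4.07 ± 0.19 (adjusted p = 2.94e-18, 6 of 6 pairs). CXCL1, of the same family, rose by 3.20 ± 0.14, and both were high at every time. The T cell attractant CXCL9 rose by 3.37 ± 0.08, from 487 to 1435 (median 1270) to 6900 to 15277 (median 11225). Its relative CXCL10, a strong interferon-gamma target, was already bright with EGF alone at 7413 to 10604 (median 9784) and rose by 1.54 ± 0.15. The groups did not overlap for these genes nor for CX3CL1, a membrane-bound chemokine, which went from 435 to 856 (median 529.6) to 2852 to 4334 (median 3781), or by 2.63 ± 0.10. CCL22, an attractant of regulatory T cells, rose by 3.49 ± 0.24 and the cytokine IL32 by 3.03 ± 0.16. Probe sets of CXCL1, CXCL2 and CXCL3, which are close copies, may share signal.

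CCL20, which draws dendritic cells and B cells, changed with time. With TNF and EGF it gave 1843 and 1880 at 4 h, 2165 and 1656 at 8 h and 927 and 609.7 at 16 h. With EGF alone it gave 45.7 and 79.3, 70.4 and 20.3 and then 338 and 212. The difference narrowed from both sides, since the arrays with TNF were lower and those with EGF alone higher at 16 h than before. The log2 values were 4.68 at 4 h, 5.19 at 8 h and 1.45 at 16 h (test by time, adjusted p = 6.56e-05).

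SLC2A6, a hexose transporter, rose by 4.57 ± 0.26, more than any other gene with 12.49 added before logs, but by 3.51 with 50 added, where CXCL8 rose by 3.99 and PI3 by 3.59. Its signals were 359 to 1478 (median 822) with TNF and EGF and 6.92 to 65 (median 17.9) with EGF alone, where most arrays lay near the 10th percentile of all signals. Since 12.49 was added before taking logs, the fold of such dim genes is understated. PI3, an inhibitor of neutrophil elastase, rose by 3.92 ± 0.16 and PTGS2, the inducible cyclooxygenase of prostaglandin synthesis, by 2.79 ± 0.17. The calcium-binding S100A3 rose by 2.68 ± 0.24. For these 4 genes the groups did not overlap. Of the other 17 measured genes of hexose transport and glycolysis, PFKM and PFKFB3 fell, by 0.42 and 0.70, and 15 did not pass. Over all genes 12.9% fell. PFKFB3 did not pass without the replicate 2 arrays of 8 h (adjusted p = 0.0544, the highest of its alternatives, whose lowest was 0.00164).

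Of 22 listed complement and acute phase genes 15 were measured and 11 rose, with a median of 1.00, and 6 of the 15 passed the test by time. C3, the central complement component, gave 126 and 77.6 at 4 h, 439 and 327 at 8 h and 928 and 1120 at 16 h with TNF and EGF, against 24.9 to 38.5 (median 32.6) over all arrays with EGF alone. For C3 the log2 difference reached 1.38 at 4 h, 3.18 at 8 h and 4.50 at 16 h (test by time, adjusted p = 0.00503). The protease C1S rose by 2.51 ± 0.14 and factor B, CFB, by 1.81 ± 0.10, and both differed by time (adjusted p = 0.00419 and 1e-05). SERPINA3, an antiprotease of the acute phase, rose by 1.61 ± 0.22. The complement regulators CD46 and CD55 did not pass, at −0.01 and 0.08.

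Among adhesion and matrix genes 16 of 26 were measured, with a median of 0.67; 11 rose and 5 did not pass. ICAM1, which binds leukocyte integrins, rose by 1.69 ± 0.14 to 10410 to 14625 (median 11666) from 2536 to 4416 (median 3976). The urokinase PLAU rose by 2.11 ± 0.24, the matrix protease MMP7 by 1.36 ± 0.13 and the laminin chain LAMB3 by 1.51 ± 0.16. VCAM1, which is better known from endothelium, was dim until late: its arrays with TNF and EGF gave 97 and 97, 185 and 182 and then 873 and 621, and all arrays with EGF alone lay at or below 81.9. Of 8 endothelial markers 6 stayed below the filter in all 12 arrays, CDH5 and TIE1 among them at or below 17.0 and 8.6. PECAM1 and ENG reached it, with highest signals of 191.3 and 328.3.

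**Figure D2:**
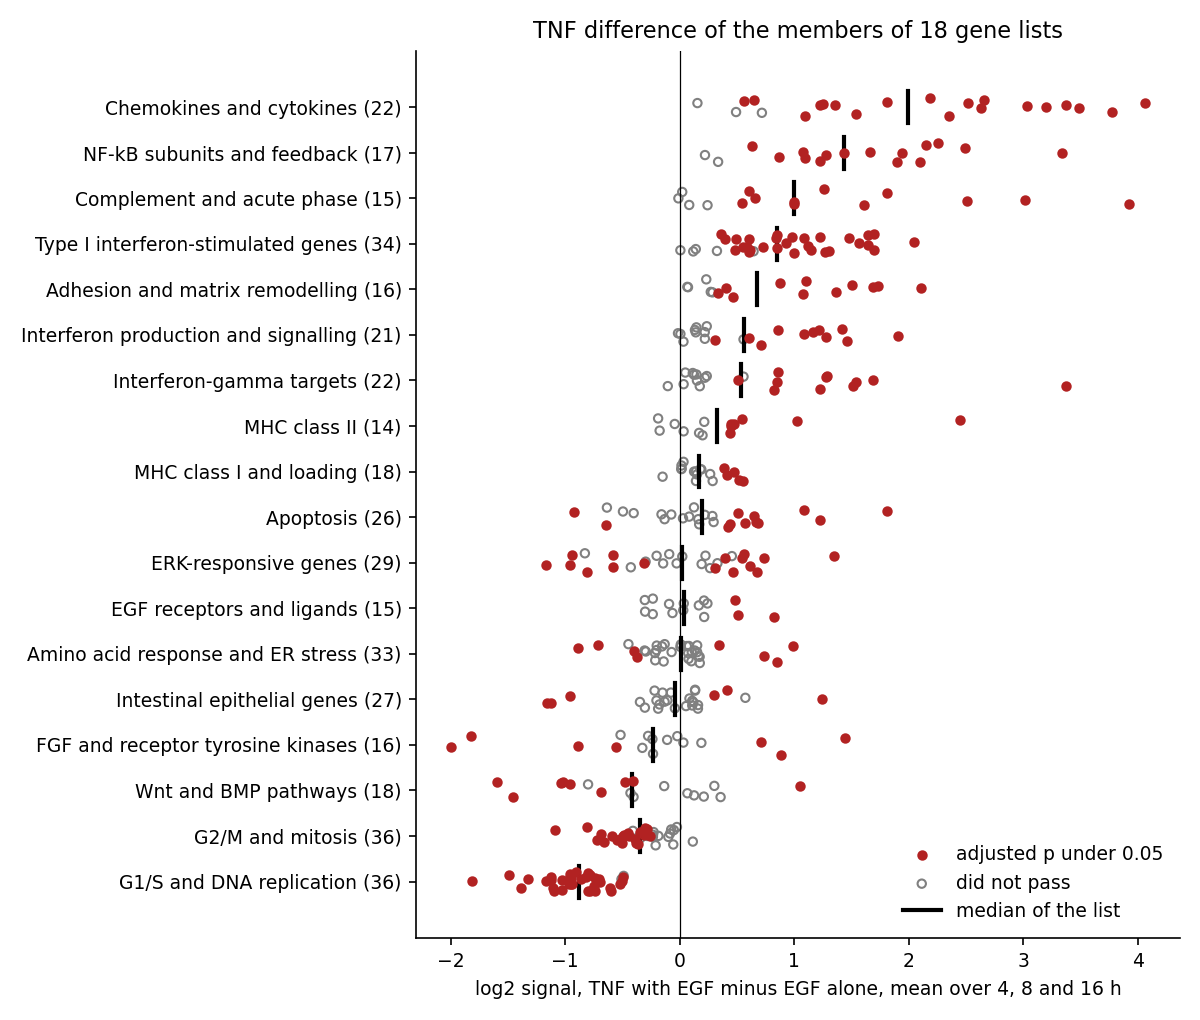
Mean log2 difference over the 3 times (TNF with EGF minus EGF alone) of each measured gene of 18 lists, with the number of genes in brackets. Filled points passed an adjusted p of 0.05, open points did not and bars mark medians, from 2.00 for chemokines and 1.44 for NF-kB genes to −0.88 for DNA replication genes.

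IFNB1, the gene of interferon-beta, was at 7.51 and 6.86 at 4 h and 12.4 and 16.2 at 8 h with TNF and EGF, near the 10th percentile of all signals, and at 532 and 512 at 16 h. With EGF alone it stayed between 7.08 and 17.1 at all times. Only the 16 h arrays with TNF stood out, and the difference of 4.60 there is set in part by the value added before logs: over 24 alternatives the difference at 16 h minus that at 4 h was 3.34 to 6.28. RSAD2, which encodes the antiviral enzyme viperin, gave 77.5 and 97.9, then 327 and 299, then 8029 and 8062, against 80.6 and 76.4, 133 and 109 and 314 and 272 with EGF alone. Both groups were thus close at 4 h and wide apart at 16 h, with differences of 0.13 at 4 h, 1.29 at 8 h and 4.72 at 16 h (test by time, adjusted p = 1.44e-07).

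RSAD2 belongs to the type I interferon-stimulated genes, of which 34 of 36 listed were measured. At 4 h 5 of them were higher, at 8 h 13 and at 16 h 30, with medians of 0.18, 0.59 and 1.80. Over all times 29 rose and IRF9, BST2, TRIM21, IFIT5 and IFI6 did not pass, and 19 of the 34 passed the test by time (2.63% of all genes). IFIT1, which binds viral RNA, had −0.37 at 4 h, 0.39 at 8 h and 3.24 at 16 h, and IFIT2 0.22 at 4 h, 1.29 at 8 h and 3.43 at 16 h. Among sensors of viral RNA IFIH1 had 1.17 at 4 h, 2.07 at 8 h and 1.86 at 16 h, DHX58 1.20 at 4 h, 1.23 at 8 h and 2.66 at 16 h and RIGI 0.63 at 4 h, 1.77 at 8 h and 2.54 at 16 h. CCL5, a chemokine that interferon and NF-kB both control, gave 209.8 and 203 at 4 h and 3105 and 3966 at 16 h with TNF and EGF and was at 121 to 161 (median 143) with EGF alone.

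RSAD2 had the largest rise of the antiviral list, so the promoter of 1 of its starts in the table is shown, from RefSeq on GRCh38.p14, chr2:6877527-6877776, plus strand. Capitals mark the match to the interferon-stimulated response element, ISRE, here read on the other strand, at position −145.
RSAD2: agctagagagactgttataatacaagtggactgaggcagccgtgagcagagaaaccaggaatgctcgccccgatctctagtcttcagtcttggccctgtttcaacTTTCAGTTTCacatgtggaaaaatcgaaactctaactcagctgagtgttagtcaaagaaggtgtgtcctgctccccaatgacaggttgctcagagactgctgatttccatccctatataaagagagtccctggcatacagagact
At the other listed start, chr2:6865635-6865884, the motif was not found. ISRE was found in 3.8% of the tested genes with a promoter, in 56 of 430 genes that rose (13.0%), in 21 of 871 that fell (2.41%) and in 17 of 26 genes of the antiviral list (65.4%). The AP-1 motif TGANTCA was found in 6.59% of tested genes, 12.3% of those that rose and 4.71% of those that fell.

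Of 21 measured genes of interferon production and signalling 11 rose and 10 did not pass. The interferon-gamma receptor chain IFNGR2 rose by 1.91 ± 0.10, from 1217 to 1596 (median 1442) to 4714 to 6835 (median 5059), and the type I receptor chain IFNAR2 by 1.42 ± 0.10. SOCS1, the inhibitor of JAK kinases, rose by 1.28 ± 0.14 and STAT5A by 1.22 ± 0.19. IRF1, a main transcription factor of the interferon-gamma response, was bright in both groups, at 7407 to 11866 (median 8549) and 6009 to 10704 (median 7589), and did not pass at 0.22 ± 0.10 (adjusted p = 0.129). Of 22 measured interferon-gamma targets 11 rose and 11 did not pass. IDO1, which breaks down tryptophan, rose by 1.51 ± 0.12 and PML by 1.28 ± 0.12.

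In the class I group the median was 0.17, and 5 of 18 measured genes rose (6.59% of all genes) while 13 did not pass. The peptide transporter TAP1 rose by 0.52 ± 0.10 and its partner TAPBP by 0.55 ± 0.12. In the class II group 7 of 14 rose, with a median of 0.33. HLA-DOB, which modulates class II loading, rose by 2.45 ± 0.20, from 50 to 111 (median 87) to 242 to 1070 (median 557), and the protease CTSS by 1.02 ± 0.15. CIITA, the class II master regulator, did not pass at 0.03 ± 0.14 (adjusted p = 0.911), nor did HLA-DPB1 at −0.04 ± 0.09 (adjusted p = 0.824). The 95% interval of the HLA-DPB1 difference ran from −0.23 to 0.14. HLA chains have near-identical copies, so their probe sets may share signal. HLA-DRA and HLA-DRB1 passed at 0.45 and 0.55 but not with quantile normalization (adjusted p = 0.176 and 0.122, the highest over their alternatives). Without EGF alone 4 h replicate 2 they missed the threshold too (0.0537 and 0.0831), and HLA-DRA also without TNF with EGF 16 h replicate 1 (0.0621).

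Of 15 measured EGF receptors, ligands and adaptors 3 rose (6.59% of all genes) and 12 did not pass. EGFR rose by 0.82 ± 0.15 (adjusted p = 0.000116, 6 of 6 pairs), with 1029 and 1357 at 4 h, 991 and 909 at 8 h and 2006 and 2137 at 16 h against 987 and 622, 476 and 498 and 1049 and 1094 with EGF alone. At each time both arrays with TNF were higher, though the groups overlap across times. TGFA, an EGF receptor ligand, rose by 0.51 ± 0.13 without overlap. The ligands EREG and HBEGF and the receptor ERBB2 did not pass, at 0.21, −0.23 and −0.24. ERBB3, at −0.30, did not pass (adjusted p = 0.067) but did with the replicate number as a block (0.0333, range over the alternatives 0.0333 to 0.203).

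Of 29 measured ERK-responsive genes 9 rose (6.59% of all genes), 7 fell (12.9%) and 13 did not pass, and the median was 0.02. The phosphatase DUSP5, an ERK feedback inhibitor, rose by 1.35 ± 0.14, from 557 to 982 (median 622) to 1033 to 3240 (median 1637), without overlap. FOSL1, a partner of JUN, rose by 0.54 ± 0.11. In the opposite direction the immediate early gene FOS fell by 1.17, from 359.7 to 645 (median 501) to 158 to 307 (median 215), also without overlap. The receptor feedback inhibitor SPRY2 fell by 0.81 and the phosphatase DUSP2 by 0.96. SPRY4, PHLDA1 and MYC, further ERK targets, did not pass at 0.23, 0.27 and −0.14. EGR1, at −0.43 (adjusted p = 0.0862), passed with the replicate number as a block (0.0288, range over the alternatives 0.0248 to 0.332). DUSP6 passed at 0.62 and was lost without any of 3 single arrays: EGF alone 4 h replicate 1 (adjusted p = 0.1), EGF alone 16 h replicate 1 (0.0737) and TNF with EGF 16 h replicate 2 (0.0849); over all alternatives its adjusted p was 0.000294 to 0.2.

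TNF lowered most DNA replication genes. Of 39 listed genes of G1/S and replication 36 were measured; 34 fell, and CCNE2 and RFC2 did not pass. The median difference was −0.88 over all times, and −0.31, −0.90 and −1.39 at 4, 8 and 16 h, where 3, 23 and 32 of the 36 were lower (1.06%, 3.69% and 8.96% of all genes). MCM6, a subunit of the replicative helicase, gave 2636 and 2512 at 4 h, 1044 and 1134 at 8 h and 476 and 416 at 16 h with TNF and EGF, against 2499 and 2904, 2611 and 2707 and 2051 and 1514 with EGF alone. The groups were alike at 4 h and apart at 8 h and 16 h, with differences of −0.07 at 4 h, −1.28 at 8 h and −1.96 at 16 h (test by time, adjusted p = 1.16e-05). MCM2, of the same helicase, had −0.18 at 4 h, −1.14 at 8 h and −1.99 at 16 h. GINS2, which joins the helicase at origins, had −0.25 at 4 h, −0.80 at 8 h and −4.41 at 16 h; at 16 h its arrays with TNF and EGF gave 7.76 and 57.4. DTL, which targets CDT1 for destruction, fell by 1.49 and the origin factor CDC6 by 1.33, both without overlap, and the clamp loader gene DSCC1 fell by 1.45.

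Of 36 measured G2/M genes 22 were lower at 16 h (8.96% of all genes) and 2 at 8 h (3.69%). Over all times 21 fell (12.9% of all genes), with a median of −0.35. With median centring of the arrays 8 fell. FOXM1, the transcription factor of this programme, had −0.05 at 4 h, −0.62 at 8 h and −1.39 at 16 h, and the kinetochore gene NDC80 −0.26 at 4 h, −0.56 at 8 h and −1.62 at 16 h. CDKN1A, the cyclin-dependent kinase inhibitor p21, rose by 1.55 ± 0.19, from 336 to 717 (median 615) to 934 to 2474 (median 1866), without overlap. RGCC, a cell cycle regulator, rose by 2.48 ± 0.17. These 2 genes were not typical of the growth arrest list. Among its 16 measured genes 4 rose, 3 fell and 9 were not called, and the median difference was −0.02. GADD45A and the stress cytokine gene GDF15 were among the falls, by 1.18 and 0.75. A lower signal in these samples can come from fewer cycling cells or from less RNA per cell, which cannot be told apart here.

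**Figure D3:**
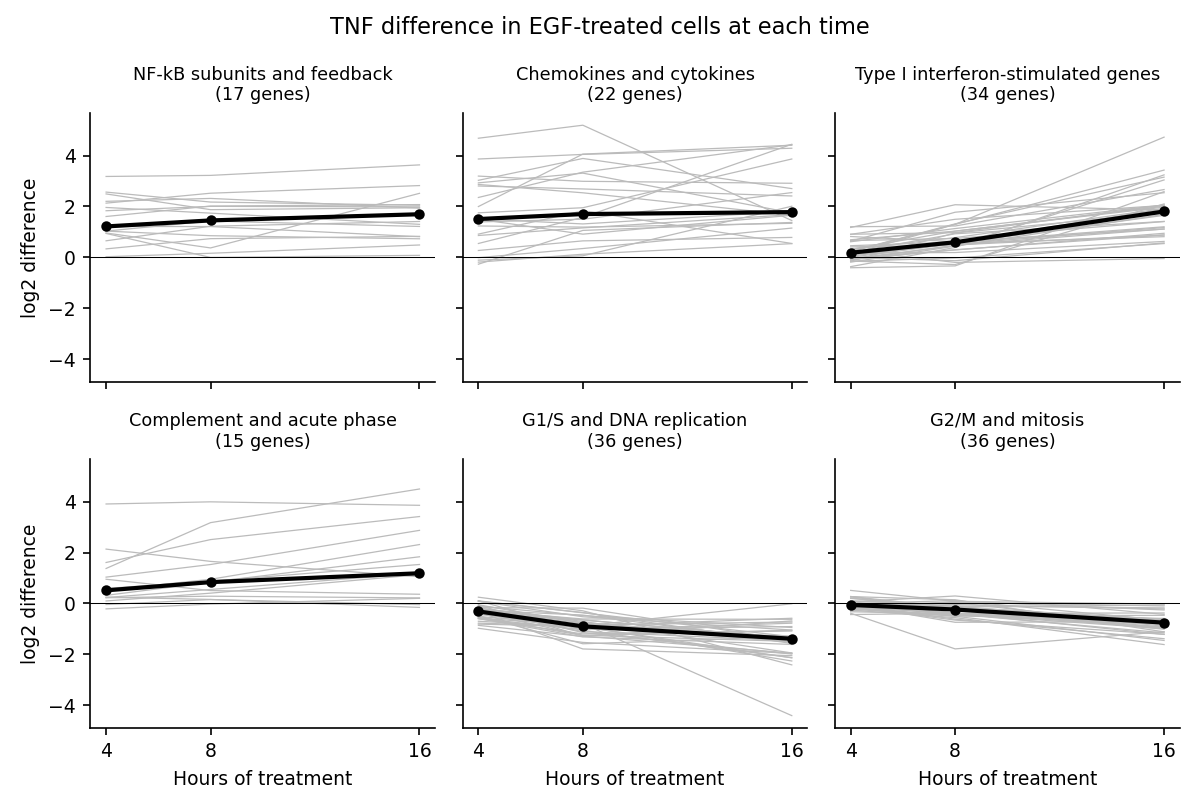
Log2 difference between TNF with EGF and EGF alone at 4, 8 and 16 h for the measured genes of 6 lists (thin grey lines) and the list median (black). NF-kB medians were 1.21, 1.45 and 1.69, those of interferon-stimulated genes grew from 0.18 to 1.80, and those of DNA replication genes fell from −0.31 to −1.39.

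Of 26 measured genes of cell death 10 rose (6.59% of all genes), 2 fell (12.9%) and 14 did not pass. CFLAR, which encodes the caspase-8 inhibitor FLIP and is an NF-kB target, rose by 1.22 ± 0.07, from 2094 to 3253 (median 2857) to 5510 to 7715 (median 6457). TNFSF10, which encodes the death ligand TRAIL, rose by 1.81 ± 0.10 and its receptor TNFRSF10B by 0.65 ± 0.11. PMAIP1, which drives mitochondrial cell death, rose by 1.09 ± 0.16 and the caspase inhibitor XIAP by 0.68 ± 0.18. The adaptor FADD fell by 0.64: it gave 583 and 744 at 4 h and 724 and 800.1 at 8 h with TNF and EGF, below 1333, the lowest of all arrays with EGF alone, and 1523 and 1262 at 16 h, on either side of that value. By time the difference came to −1.04 at 4 h, −0.86 at 8 h and −0.03 at 16 h (test by time, adjusted p = 0.00404). CASP6 fell by 0.92. CASP8 passed at 0.44 ± 0.11 but not without the 8 h arrays (adjusted p = 0.19, range over the alternatives 0.000139 to 0.19).

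FGFR3, a fibroblast growth factor receptor, fell by 2.00 ± 0.34 (adjusted p = 4.56e-05, 6 of 6 pairs), from 209 to 761 (median 489) to 26.7 to 277 (median 149). Its 16 h arrays with TNF and EGF differed widely, 277 and 62. The order of the largest falls was not stable: over the alternatives FGFR3 had −2.32 to −1.54, EPN3 −2.67 to −1.14 and RGS2 −1.98 to −1.71. FGF9, a ligand of this family, fell by 1.82 and FGFR2 by 0.89. EPN3, an endocytic adaptor, fell by 1.93 (6 of 6 pairs), from 20.3 to 159 (median 107) to 8.72 to 21.9 (median 11.6), which overlap. CEBPA, a transcription factor of differentiation, fell by 1.87, from 142 to 278 (median 176) to 21 to 87.8 (median 44.4), and LPCAT4, an enzyme of phospholipid remodelling, by 1.52. The sulfotransferase CHST12 fell by 1.60 but did not pass without the 8 h arrays (adjusted p = 0.0611, range over the alternatives 0.000809 to 0.0611). RGS2, a brake on G-protein signalling, was bright with EGF alone at 2839 to 3705 (median 3201) and fell by 1.91 ± 0.10, to 555 to 1448 (median 752).

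In the Wnt and BMP group 8 of 18 measured genes fell, 1 rose and 9 did not pass. The BMP targets ID2 and ID1, inhibitors of differentiation factors, fell by 1.45 and 0.69. SOSTDC1, a secreted antagonist of BMP and Wnt, fell by 1.59. DKK1, a secreted Wnt inhibitor, gave 627 and 479 at 4 h, 1363 and 1416 at 8 h and 3678 and 4548 at 16 h with TNF and EGF, against 2222 and 2163, 2390 and 2660 and 4567 and 5078. Both groups climbed by 16 h, and the difference shrank from −1.98 at 4 h to −0.23 at 16 h (test by time, adjusted p = 3.78e-05). SMAD3, which carries the TGF-beta signal, rose by 1.05 ± 0.14. Among 27 measured intestinal epithelial genes 3 rose (6.59% of all genes), 3 fell (12.9%) and 21 did not pass. Villin, VIL1, a brush border protein, fell by 0.96, with −0.01 at 4 h, −0.79 at 8 h and −2.08 at 16 h, and HES1, a Notch target, by 1.12. The mucin MUC1 rose by 1.24 ± 0.17.

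Of 33 measured amino acid response and ER stress genes 4 rose and 4 fell. Of 25 redox and metal genes 7 rose and 3 fell. Over all genes 6.59% rose and 12.9% fell. The phosphatase regulator PPP1R15A rose by 0.99 ± 0.13 and ATF3 by 0.74 ± 0.09, while the serine synthesis enzymes PSPH and PHGDH fell by 0.88 and 0.71. Catalase, CAT, fell by 0.80, and the metallothionein MT2A, whose family has close copies, rose by 0.73 ± 0.11. In limma's test no gene of 15 measured in sterol synthesis passed, 1 had an unadjusted p under 0.05, and 1 passed with the replicate number as a block. Of 22 ribosome biogenesis genes 3 fell, 6 with the block and 1 with median centring.

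The count of genes called grew with time. At 4 h 332 probe sets passed (2.47%), at 8 h 766 (5.71%) and at 16 h 1714 (12.8%). With the replicate number as a block within each time these counts were 580, 1379 and 2620. With only the compared groups fitted the counts at 4 h and 8 h were lower, as given in the last paragraph. At 4 h 221 of the 332 were higher, and at 16 h 1018 of the 1714 were lower. Each time rests on 2 arrays per treatment, and single arrays moved these counts. At 4 h the count was 192 without EGF alone replicate 1, 209 without EGF alone replicate 2, 216 without TNF with EGF replicate 1 and 195 without TNF with EGF replicate 2. At 8 h it was 374 without EGF alone replicate 1, 393 without EGF alone replicate 2 and 362 without TNF with EGF replicate 2. At 16 h it was 914 and 1013 without EGF alone replicates 1 and 2, and 1137 and 1078 without TNF with EGF replicates 1 and 2. A treatment left with 1 array was assumed to vary like the other groups.

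The TNF difference itself moved with time for 278 probe sets (2.07%), or 213 genes by their brightest probe set (2.63%), and for 653 probe sets with the block. In 171 of the 213 genes the difference was largest at 16 h, in 25 at 4 h and in 17 at 8 h. Interferon-stimulated genes gave 19 of them, replication genes 15 and chemokines 9, against 1 of the 17 NF-kB genes, TRAF1. Some genes had their largest difference first: EFNA1, an ephrin, had 2.36 at 4 h, 1.39 at 8 h and 0.58 at 16 h, and VEGFA, an angiogenic factor, 1.78 at 4 h, 0.91 at 8 h and −0.04 at 16 h. BMP4 had −2.53 at 4 h, −1.45 at 8 h and 0.88 at 16 h, but its test by time (adjusted p = 0.0358) ranged from 0.00846 to 0.28 over the alternatives and missed the threshold without any 1 of 7 of the 8 arrays at 4 and 16 h (all but EGF alone 16 h replicate 1). The count of 278 was 172 without EGF alone 4 h replicate 1, 182 without TNF with EGF 4 h replicate 2, 142 and 158 without EGF alone 16 h replicates 1 and 2, and 169 and 160 without TNF with EGF 16 h replicates 1 and 2.

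To ask whether TNF acted differently in cells without EGF, TNF with EGF minus EGF alone was set against TNF alone minus untreated, on arrays that are not shared. Across 8105 genes, which are not independent replicates, the 2 differences correlated at r = 0.845. The difference between them passed for 5 probe sets (0.0373%), negative in 4 and positive in 1, RGS2, which TNF lowered. A further 417 in all had an unadjusted p under 0.05, the 5 included. The 5 stood for 3 genes (0.037%), CX3CL1, RGCC and RGS2, and a probe set without a single gene symbol. With the replicate number as a block, 17 passed, the 5 included. For each of the 3 named genes TNF moved the signal less in EGF-treated cells.

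CX3CL1 had the steadiest of these calls. Signals were 273 to 567 (median 311) in untreated cells, 3137 to 5362 (median 4669) with TNF, 435 to 856 (median 529.6) with EGF and 2852 to 4334 (median 3781) with both. The median with EGF alone lay above that of untreated cells and the median with both factors below that with TNF, while in each case the ranges overlapped. TNF raised it by 2.63 with EGF and 3.49 without, a difference of −0.86 ± 0.14 (adjusted p = 0.00878), and the other probe set of the gene gave −1.21 ± 0.20. Over 24 alternatives the adjusted p of the first lay between 0.000713 and 0.121, and it missed the threshold only with median centring.

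RGCC gave 53.2 to 140.2 (median 94.4) in untreated cells, 851 to 1904 (median 1350) with TNF, 91.6 to 260.4 (median 152) with EGF and 513 to 1346 (median 1088) with both. It rose by 2.48 with EGF and 3.68 without, a difference of −1.20 ± 0.24 (adjusted p = 0.0408, 0.0192 with the block). RGS2, the G-protein regulator, gave 1556 to 4844 (median 4000) in untreated cells, 256 to 1153 (median 417) with TNF, 2839 to 3705 (median 3201) with EGF and 555 to 1448 (median 752) with both. It fell by 1.91 with EGF and by 2.66 without, a difference of 0.75 ± 0.14 (adjusted p = 0.0335, 0.00839 with the block). Both calls were fragile. Over 24 alternatives the adjusted p of RGCC was 0.0133 to 1 and that of RGS2 0.00839 to 0.687. The call of RGCC was lost without any single array of 11 (all but EGF alone 16 h replicate 1), and that of RGS2 without any of 9 (all but EGF alone 8 h replicate 2 and TNF with EGF 8 h replicate 1 and 16 h replicate 2).

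The 12 further probe sets that passed with the block included those of CXCL8, FOSL1 and LCN2, which rose less with EGF, and SPRR1B, which rose more. CXCL8 was at 10253 to 15062 (median 11230) with TNF and 8957 to 15681 (median 10438) with TNF and EGF, but at 267 to 565 (median 339.6) untreated against 555 to 977 (median 569.6) with EGF. Its rise was 4.07 with EGF and 5.00 without, a difference of −0.93 ± 0.26 (adjusted p = 0.749, 0.0238 with the block). SPRR1B, a protein of the cornified envelope, rose by 1.58 with EGF and had 0.51 without, a difference of 1.07 ± 0.25 (adjusted p = 0.224, 0.0334 with the block). With and without EGF, chemokine medians were 2.00 and 2.25, NF-kB medians 1.44 and 1.61, antiviral medians 0.85 and 1.07 and replication medians −0.88 and −0.72. The difference itself was positive for 4 of 22 chemokines, 2 of 17 NF-kB genes and 6 of 34 antiviral genes, with CX3CL1 alone called among them. Lists in which few genes rose leaned the same way, with 3 of 22 positive in ribosome biogenesis and 8 of 33 in the amino acid list. In class I 14 of 18 were positive. The median of this difference over all genes was 0.01, with a median standard error of 0.21 per gene. List members are not independent replicates, and the lean of the lists was not tested. The count of 5 was 2 to 4 when 1 of the 12 arrays was left out, 1 without the 8 h arrays or without their replicate 2, and 0 with median centring, where 408 had an unadjusted p under 0.05.

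**Figure D4:**
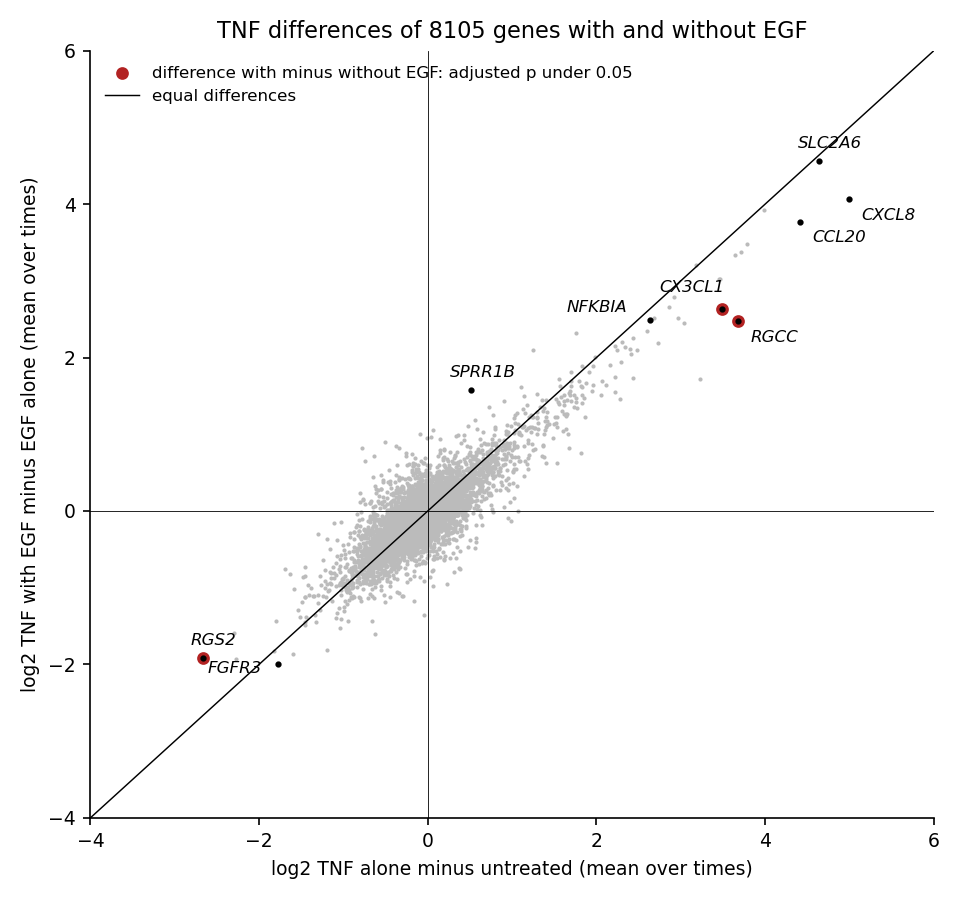
Mean log2 difference made by TNF in EGF-treated cells (vertical) against that in cells without EGF (horizontal) for 8105 genes, with a line of equal differences. Red points mark CX3CL1, RGCC and RGS2, which passed the test of the difference; black points mark other named genes, and most lay near the line (r = 0.845 across genes).

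Insulin, another growth factor, gave a further comparison, TNF with insulin minus insulin alone. Here 34 probe sets passed (0.253%), and 887 had an unadjusted p under 0.05. The difference with EGF minus with insulin was negative in 30 of the 34. Counted by each gene's brightest probe set, 22 genes passed (0.271%), of which 3 are on the class II list and 3 on the amino acid list. HLA-DPB1, a class II chain, gave 366 to 1075 (median 457) with insulin alone and 658 to 2750 (median 1130) with TNF and insulin, against 493 to 1672 (median 645) and 457 to 1392 (median 679.7) in the EGF pair. TNF raised it by 1.16 with insulin and left it at −0.04 with EGF, a difference of −1.20 ± 0.13 (adjusted p = 1.25e-06). Without either factor TNF raised HLA-DPB1 by 0.28, and the difference with EGF minus without, −0.32 ± 0.13, did not pass. Nor did that of CIITA, at −0.52 ± 0.19, or of HLA-DQB1, at −0.53 ± 0.24. For CIITA the TNF differences were 1.24 and 0.03, which differed by −1.21 ± 0.19 (adjusted p = 0.00109), and for HLA-DQB1 1.45 and 0.21 (adjusted p of the difference = 0.00842, but 0.0834 with only the compared groups fitted; the range over the alternatives was 0.00028 to 0.0834). Of 14 measured class II genes TNF raised 13 with insulin (8.71% of all genes), 10 without either factor (7.5%) and 7 with EGF, with medians of 1.03, 0.49 and 0.33. For all 6 treatments the signals of HLA-DPB1 were highest at 16 h.

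PHGDH, the first enzyme of serine synthesis, had TNF differences of 0.36 with insulin and −0.71 with EGF, −1.07 ± 0.17 apart (adjusted p = 0.00109). Asparagine synthetase, ASNS, differed by −0.91 ± 0.15 (adjusted p = 0.00116), the cystine transporter SLC7A11 by −0.94 ± 0.16 and the mitochondrial PCK2 by −1.04 ± 0.16. At these probe sets of the 4 genes TNF gave a positive value with insulin and a negative one with EGF. Without either factor TNF lowered PHGDH too, at −0.36 (limma adjusted p = 0.03). Its difference with EGF minus without, −0.35 ± 0.17, did not pass. A further probe set of SLC7A11 had 0.045 with EGF. Its difference of −0.84 did not pass in limma (adjusted p = 0.0779, 0.0126 with the block). SPRR1B, ARHGDIB and C3orf52 were the 3 of the 22 genes with the larger value with EGF, by 1.23 ± 0.25, 1.16 ± 0.26 and 0.79 ± 0.15. TNF did not raise ARHGDIB: it had −1.50 with insulin, −0.59 without either factor and −0.34 with EGF, where it did not pass. The call of ARHGDIB held in 7 of 24 alternatives (adjusted p from 0.00242 to 0.223) and was lost without any of 9 arrays (all but EGF alone 16 h replicate 1, TNF with EGF 4 h replicate 1 and TNF with EGF 8 h replicate 2). SPRR1B was lost with only the compared groups fitted (0.155) and without EGF alone 8 h replicate 1 (0.0533), EGF alone 16 h replicate 2 (0.057) or the 8 h arrays (0.243). C3orf52 was lost with only the compared groups fitted (adjusted p = 0.152), with median centring (0.198), and without EGF alone 16 h replicate 2 (0.0525), the 8 h replicate 2 arrays (0.0688) or the 8 h arrays (0.705). A dimmer probe set of SLC7A8, an amino acid transporter, also passed, at 1.99 ± 0.40 (adjusted p = 0.0145), while the brightest of that gene did not, at 0.26 (adjusted p = 0.959). The count of 34 was 20 without TNF with EGF 4 h replicate 1, 22 without EGF alone 4 h replicate 2 and 15 without EGF alone 16 h replicate 2, 10 without the 8 h arrays and 18 with median centring.

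**Figure D5:**
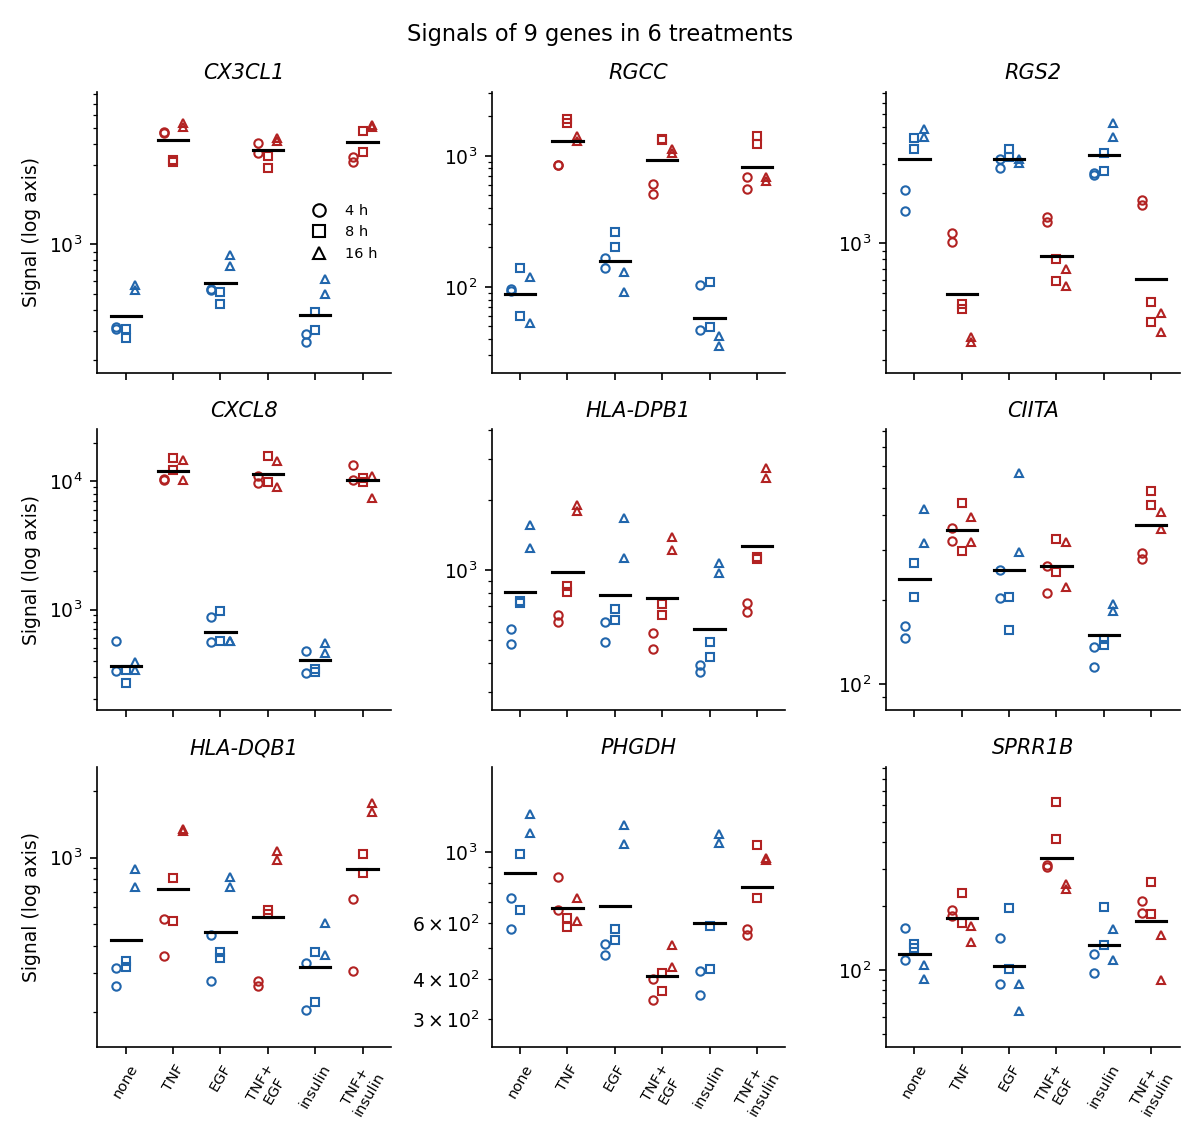
Signal on a log axis of 9 genes in primed cells without a factor, with TNF, with EGF, with TNF and EGF, with insulin and with TNF and insulin, 1 point per array (circles 4 h, squares 8 h, triangles 16 h; red with TNF, blue without), with bars at the geometric mean of 6 arrays. With TNF, HLA-DPB1 and CIITA lay higher than their controls in the insulin pair and near them in the EGF pair, and the mean of SPRR1B was highest with TNF and EGF.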

How the data were processed

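RNA was measured on Affymetrix arrays, and the authors deposited 1 linear signal intensity per probe set and array, made with MAS5 per the submitters' processing notes. The trimmed mean of every array was 500.2, so arrays share 1 scale. Of 22283 probe sets 68 controls were left out. The 10th percentile of all signals, 12.49, was added before taking log2, and 13422 probe sets whose mean reached the median of all values, 138.9, in at least 1 of 27 groups were kept. Of the probe sets 19065 have 1 gene symbol in the platform annotation, 1043 several and 2107 none. Only those with 1 were named, each gene by its brightest kept probe set, which gave 8105 genes. The members and gene lists were chosen with earlier results of these data known.

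All 54 arrays were fitted in limma 3.58.1 (R 4.3.3), with 1 mean per group, an intensity trend, eBayes and Benjamini-Hochberg adjustment over the kept probe sets. Contrasts were averaged over 4, 8 and 16 h, taken at each time, tested by time (F test) and set against the TNF difference without EGF and with insulin. The code was tested on simulated data. The number of arrays, 2 per group, limits the precision, and p-values measure only the spread between these arrays, which may be technical where cultures were not separate. The pairs of the same time and replicate number deviated together in 3 of 3 comparisons with and without TNF in EGF-treated cells (r = 0.243 at 4 h, 0.352 at 8 h and 0.288 at 16 h) and in 18 of 18 pairs of the 4 groups with and without TNF and EGF, so the number was also used as a block. Named genes were the 12 largest rises and falls with 1 sign in 6 of 6 pairs, the 8 with the largest range over time, the largest calls of the other comparisons (up to 8 or 5 per direction), up to 5 called members of each list, members that did not pass where their role is described, and a fixed set. RELA, RELB, TRAF1, LCN2, ASNS, SLC7A11, SLC7A8 and PCK2 fall outside this rule and were named after their values were seen. Alternatives covered the value added before logs, the filter, normalization, the variance model, the groups fitted, the block and arrays left out. Promoter letters are from RefSeq, GRCh38.p14.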

Additional observations from a re-analysis of the deposited data

Results flagged for a closer look

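The TNF difference in EGF-treated cells moved with time for 278 probe sets. Between its lowest and highest time it spanned 4.81 log2 units for IFNB1, 4.59 for RSAD2, 4.16 for GINS2, 3.90 for CCL5, 3.75 for CCL20, 3.61 for IFIT1 and 3.41 for both VCAM1 and BMP4. For BMP4 the adjusted p of limma's test by time missed the threshold in 11 of 24 alternatives.

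The TNF difference with EGF minus that without passed for 5 probe sets, with −0.86 for CX3CL1, −1.20 for RGCC and 0.75 for RGS2.

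Set against insulin, 34 probe sets passed. The values with EGF were larger by 1.23 for SPRR1B, 1.16 for ARHGDIB and 0.79 for C3orf52. For ARHGDIB both values were negative, and the one with EGF did not pass. They differed by −1.52 for HLA-DRB4, −1.23 for HLA-DQB1, −1.22 for DEPP1, −1.21 for CIITA and −1.20 for HLA-DPB1. For DEPP1 limma's adjusted p lay between 0.00147 and 0.288 over the alternatives. The HLA probe sets may share signal with near-identical copies.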

How the results depend on the processing

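The count of 2256 probe sets for TNF in EGF-treated cells stayed within 1.5 times under its 25 alternatives, from 1816 to 2171 with 1 array left out. Over named genes and alternatives 3399 results kept their side of the threshold, 100 lost the call and 7 gained it. No result that passed turned direction, but the mean differences of CIITA (−0.27 to 0.19) and HLA-DPB1 (−0.14 to 0.05), which did not pass, changed sign. With the replicate block within each time the counts were 580 at 4 h, 1379 at 8 h, 2620 at 16 h, 653 for the test by time, 17 against cells without EGF and 131 against insulin (52 with the block over all times). For the insulin comparison 15 of 18 pairs deviated together, so the numbers were not taken to pair its arrays. With only the compared groups fitted the counts were 156 at 4 h, 229 at 8 h, 101 by time, 3 without EGF and 13 with insulin. Median centring gave 497 at 8 h, 131 by time, 0 without EGF (408 at an unadjusted p under 0.05 in limma) and 18 with insulin. With no intensity trend the counts were 2 without EGF and 22 with insulin. Without the 8 h replicate 2 arrays they were 256 at 8 h and 1 without EGF, and without all 8 h arrays 1 without EGF and 10 with insulin. With 1 array left out the ranges were 192 to 335 at 4 h, 362 to 776 at 8 h, 914 to 1716 at 16 h, 142 to 315 by time, 2 to 4 without EGF and 15 to 35 with insulin. The causes were not tested.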
